A study of Mus musculus with 6 samples.

Results

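The genes described here are 4 sodium transport genes of the mouse heart, Scn4a, Scn4b, Atp1b1 and Fxyd1, which were picked by name from the 56923 genes listed in the count table and each matched 1 gene identifier. They were measured by mRNA-Seq in left ventricles (LVs) of 12-week-old mice, 3 WT and 3 Lztr1 R409C/+, with 1 library per mouse. The Lztr1 R409C/+ mice carry 1 knock-in allele made with CRISPR/Cas9 in every cell of the body, on a C57BL/6J background, and their controls were Lztr1 +/+. LZTR1 is an adaptor of a ubiquitin ligase that acts on RAS family proteins, and its dominant mutations cause Noonan syndrome. The sample labels call the tissue heart, while the study's methods describe LVs of perfused hearts and state that phenotypes were assessed in male mice. Neither source gives a batch or a litter for these mice. Whole ventricle was sequenced, so fewer cells of a type and less RNA per cell cannot be told apart.

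Cardiac sodium current flows through a pore-forming alpha subunit of the voltage-gated sodium channel, which sits in the membrane together with beta subunits that alter its gating and surface level. The sodium that enters is pumped out by the sodium pump (Na,K-ATPase), a complex of a catalytic alpha subunit and a beta subunit that the alpha subunit needs to reach the membrane. Small FXYD proteins bind the pump and tune its affinity for sodium, and in heart the main one is phospholemman, encoded by Fxyd1, which inhibits the pump until it is phosphorylated.

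The libraries held between 66130887 and 72641124 counts, and 3 counts were worth between 0.0317 and 0.0541 CPM, the unit used below, in which counts are scaled to library size with TMM factors. WT mouse 3 and Lztr1 R409C/+ mouse 1 stood apart, with 13.8% and 45.4% of counts from mitochondrially encoded genes against 29.7% to 37.3% in the other 4 libraries, and their TMM factors were 1.39 and 0.800. Cardiomyocyte markers (6 of 6 tested) summed to between 31000 and 34700 CPM in WT and between 20600 and 35000 CPM in Lztr1 R409C/+ mice. Mutant mice 1 and 2, at 20600 and 28100 CPM, lay below all WT mice, and mutant mouse 3, at 35000 CPM, lay above them. The 5 atrial markers (2 tested) summed to between 38.1 and 76.7 CPM in WT and between 53.5 and 107 CPM in Lztr1 R409C/+ mice, nearly all of it from Nppa, which ventricles can also express, while Sln, Myl7 and Bmp10 stayed at or under 0.262 CPM. Lztr1 itself was at 24.2, 24.2 and 22.2 CPM in WT mice and at 23.9, 27.9 and 25.3 CPM in Lztr1 R409C/+ mice, which does not check the labels, since a substitution need not alter the RNA level.

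Of the 4 genes, the channel genes Scn4a and Scn4b had lower TMM-scaled CPM in each of the 3 Lztr1 R409C/+ mice than in any WT mouse. For Scn4b this did not hold when counts were scaled to library size only. Atp1b1 and Fxyd1 overlapped between the genotypes. Scn4a had the largest difference of the 4, a log2 fold change of -0.90 ± 0.20 (SE, n = 3 per genotype). None of the 4 passed 0.05 in edgeR's quasi-likelihood test after Benjamini-Hochberg adjustment over all genes, which 0.0407% of the 17212 genes tested did, and 1 of the 4, Scn4a, had an unadjusted p under 0.05. DESeq2's Wald test and edgeR's exact test on the same counts each called Scn4a lower and none of the other 3 genes. Both tests also called more genes over the whole table, DESeq2 143 higher and 15 lower (0.918% of all genes) and the exact test 127 and 13 (0.813%), against 6 and 1 in the quasi-likelihood test.

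Read against all genes, 1 of 4 members was lower at an unadjusted p under 0.05, where 2.86% of the 17212 genes were, and 0 of 4 were higher, where 5.77% were. The count of lower members became 2 of 4, with Scn4b, without mutant mouse 3, without a filter on low counts and with a gene length correction. Without overlap between the genotypes in TMM-scaled CPM, 2 of 4 were lower, where 7.23% of all genes were, and 0 of 4 were higher, where 8.30% were. With 3 mice per genotype, an exact permutation test of a single gene cannot go below p = 0.1, the value it gave for Scn4a and Scn4b.

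**Figure D1:**
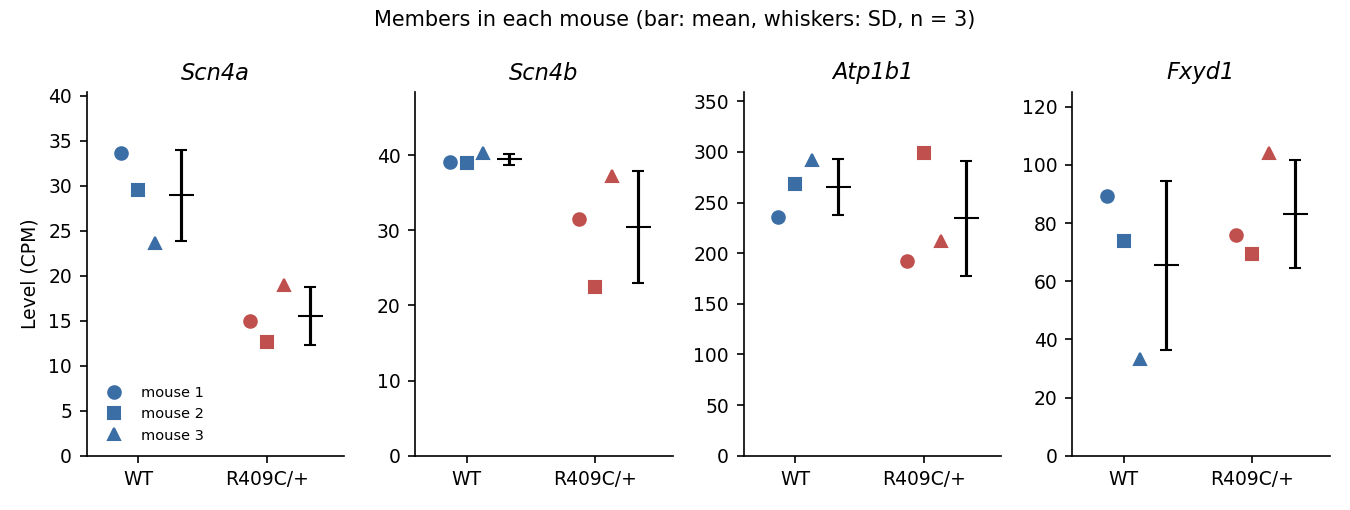
Level of each gene in CPM (y axis, from 0) in 3 WT mice (blue) and 3 Lztr1 R409C/+ mice (red), where the symbol gives the mouse number and the black bar with whiskers the mean and SD. The red points lie below all blue points for Scn4a and Scn4b, and the colours overlap for Atp1b1 and Fxyd1.

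Scn4a encodes Nav1.4, the alpha subunit best known as the sodium channel of skeletal muscle. The gene (ENSMUSG00000001027.8) lies on the minus strand of GRCm39 at chr11:106208370-106256385, with 26 exon blocks in GENCODE. It was at 33.7, 29.5 and 23.6 CPM in WT mice and at 14.96, 12.6 and 18.9 CPM in Lztr1 R409C/+ mice. The highest mutant mouse, number 3, stayed under the lowest WT mouse, also number 3. The group means were 28.9 ± 5.05 CPM and 15.5 ± 3.19 CPM (SD, n = 3), and counts per library lay between 829 and 2237. The unadjusted p in edgeR's quasi-likelihood test was 0.000621, rank 45 among all genes tested, and its adjusted p was 0.215. DESeq2's Wald test gave an adjusted p of 0.00745 and edgeR's exact test one of 0.0126.

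The lower level of Scn4a did not rest on 1 mouse. Leaving out each mouse in turn gave log2 fold changes between -1.07 and -0.77, all with an unadjusted p under 0.05 and none with an adjusted p under 0.05 in the quasi-likelihood test. Without the 2 libraries that stood apart, the log2 fold change was -0.999, with adjusted p = 0.310 and 0.0017 unadjusted in edgeR's same test. Macrophage markers separated the same mice, with 4 of 4 higher at an unadjusted p under 0.05 (5.77% of all genes) and sums between 61.2 and 63.0 CPM in WT and between 98.5 and 121 CPM in Lztr1 R409C/+ mice, and erythroid markers, 3 of 3 higher by sign and 2 of 3 at an unadjusted p under 0.05, summed to between 346 and 869 and between 613 and 1580 CPM. Fibroblast markers summed to between 524 and 616 and between 583 and 649 CPM, with 1 of 4, Lum, higher without overlap, as 8.30% of all genes were. In the same direction as Scn4a, 2 of 5 smooth muscle and pericyte markers, Myh11 and Tagln, were lower at an unadjusted p under 0.05 (2.86% of all genes) and without overlap (7.23%), with log2 fold changes of -0.71 and -0.65, while the list summed to between 635 and 745 CPM in WT and between 572 and 721 CPM in Lztr1 R409C/+ mice. Of the 6 cardiomyocyte markers, 4 were lower and 2 higher by sign, none at an unadjusted p under 0.05. Of them 1, Ryr2, was lower without overlap, as 7.23% of all genes were. The part of these cells in the Scn4a and Scn4b levels was not tested.

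Because Nav1.4 is known from skeletal muscle, markers of that tissue were read beside it. The skeletal muscle markers (12 listed, 7 tested) summed to between 23.6 and 31.3 CPM in WT and between 27.9 and 30.4 CPM in Lztr1 R409C/+ mice, and these sums overlapped. By sign 6 of the 7 tested were higher and 1 lower, and 1, Myl1, was higher at an unadjusted p under 0.05, as 5.77% of all genes were. The defining fast myosins Myh1, Myh2 and Myh4 were at or under 0.0722 CPM in every library, and the calcium buffer Pvalb was at or under 0.0839 CPM. Most of the sum came from Myl1, at 9.72 to 13.9 CPM in WT and 13.8 to 18.4 CPM in Lztr1 R409C/+ mice, and from Mybpc2, at 8.84 to 11.5 and 6.84 to 9.0 CPM. The part of these markers' source in the Scn4a level was not tested.

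Of the other alpha subunits, Scn7a, which encodes the sodium-sensing channel Nax, ranged from 24.7 to 31.3 CPM in WT and from 22.0 to 31.3 CPM in Lztr1 R409C/+ mice. The genotypes overlapped, and the log2 fold change was -0.10 ± 0.18 (SE).

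Among the alpha subunits at low level, Scn3a, encoding the neuronal channel Nav1.3, was at 1.73, 2.07 and 2.47 CPM in WT mice and at 0.596, 0.867 and 1.01 CPM in Lztr1 R409C/+ mice. The genotypes did not overlap, and its log2 fold change of -1.34 ± 0.34 (SE) had adjusted p = 0.264 and 0.00189 unadjusted in edgeR's quasi-likelihood test, while DESeq2's Wald test and edgeR's exact test both called it lower. Scn10a, encoding Nav1.8, was at 1.53, 0.730 and 0.813 CPM in WT mice and at 2.13, 2.13 and 2.30 CPM in Lztr1 R409C/+ mice. It went the other way without overlap (log2 fold change 1.097 ± 0.35 SE, adjusted p = 0.407 and 0.00859 unadjusted in edgeR's quasi-likelihood test). Scn2a, at up to 0.570 CPM, had a log2 fold change of 0.10 ± 0.71 (SE), and WT mouse 2, at 0.0621 CPM, was far below the other 5 mice. Scn1a, Scn8a, Scn9a and Scn11a were too low to be tested.

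Scn4b encodes the beta4 subunit, an Ig-domain membrane protein that pairs with Nav channels and is known for promoting resurgent sodium current. The gene (ENSMUSG00000046480.7) lies on the plus strand at chr9:45049595-45065452, with 5 exon blocks. Its level was 39.0, 38.9 and 40.3 CPM in WT mice and 31.5, 22.5 and 37.3 CPM in Lztr1 R409C/+ mice. The WT mice lay within a narrow band, and the mutant mice were spread out below it, with mouse 2 lowest and mouse 3 close to the band. This separation depended on the TMM factors. Before scaling by them, mutant mouse 3 had 2701 of 66130887 counts. That was a larger share than in WT mouse 1 (2580 of 71768345) and WT mouse 2 (2506 of 71173751). The means were 39.4 ± 0.781 CPM and 30.4 ± 7.46 CPM (SD, n = 3), and the log2 fold change was -0.38 ± 0.19 (SE). By edgeR's quasi-likelihood test its p was 0.0651, or 0.600 adjusted. Mutant mouse 2 set much of the size, since without it the log2 fold change was -0.21, and without mutant mouse 3 it was -0.55.

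Of the other channel beta subunits, Scn2b and Scn3b, for beta2 and beta3, stayed under 1 CPM in every library. Their log2 fold changes were 0.61 and -0.11, with SEs of 0.76 and 0.45, and neither passed the test.

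**Figure D2:**
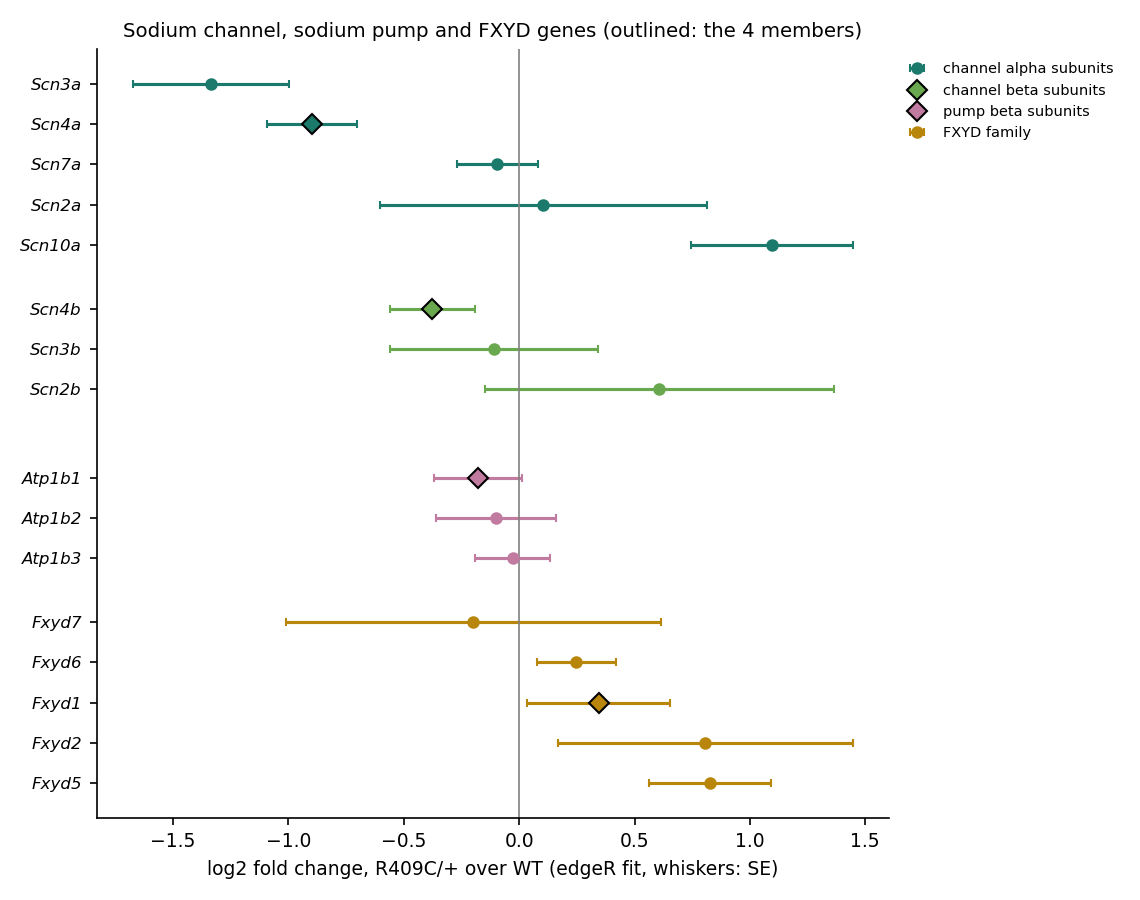
Log2 fold change of Lztr1 R409C/+ over WT mice (x axis, edgeR fit, whiskers SE, n = 3 per genotype) for 16 tested channel, pump and FXYD genes, grouped by subunit type. Diamonds with a black outline are the 4 members, of which Scn4a lies farthest from 0 at -0.90.

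Atp1b1 encodes the beta1 subunit of the sodium pump. The gene (ENSMUSG00000026576.13) lies on the minus strand at chr1:164264678-164285957, with 7 exon blocks. It was at 236, 268 and 292 CPM in WT mice and at 192, 299 and 212 CPM in Lztr1 R409C/+ mice. Mutant mice 1 and 3 were below all WT mice and mutant mouse 2 was above all of them, so the genotypes overlapped. The means were 265 ± 27.9 CPM and 234 ± 57.0 CPM (SD, n = 3), and the log2 fold change was -0.18 ± 0.19 (SE). In edgeR's quasi-likelihood test the adjusted p was 0.834 (0.369 unadjusted). Leaving out 1 mouse moved the log2 fold change to between -0.40, without mutant mouse 2, and -0.06, without mutant mouse 1, with -0.11 both without WT mouse 3 and without mutant mouse 3. Without the 2 libraries that stood apart it was 0.02, of the opposite sign.

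Of the other beta subunits of the pump, Atp1b3 was at 43.1, 45.3 and 59.6 CPM in WT mice and at 51.4, 47.4 and 46.4 CPM in Lztr1 R409C/+ mice, with a log2 fold change of -0.03 ± 0.16 (SE). WT mouse 3 was highest, and the mutant mice lay between the WT mice. Atp1b2 was at 17.8, 18.2 and 9.38 CPM in WT mice and at 11.2, 13.1 and 18.0 CPM in Lztr1 R409C/+ mice, with a log2 fold change of -0.10 ± 0.26 (SE), and WT mouse 3 was lowest.

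Fxyd1 encodes phospholemman. The gene (ENSMUSG00000036570.15) lies on the minus strand at chr7:30751092-30756677, with 6 exon blocks. It was at 89.4, 73.8 and 33.3 CPM in WT mice and at 75.9, 69.3 and 104 CPM in Lztr1 R409C/+ mice. WT mouse 3 was far below the other 5 mice, which overlapped. The means were 65.5 ± 29.0 CPM and 83.1 ± 18.5 CPM (SD, n = 3), and the log2 fold change was 0.35 ± 0.31 (SE), for which edgeR's quasi-likelihood test gave an adjusted p of 0.803 (0.291 unadjusted). That value moved with single mice, to 0.03 without WT mouse 3, 1 of the 2 libraries that stood apart, to 0.15 without mutant mouse 3 and to 0.64 without WT mouse 1.

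Fxyd5, encoding dysadherin, was the 1 of 5 tested FXYD genes that was higher without overlap, as 8.30% of all genes were. It was at 5.66, 7.86 and 3.45 CPM in WT mice and 10.1, 10.3 and 9.62 CPM in Lztr1 R409C/+ mice. This gave a log2 fold change of 0.83 ± 0.26 (SE), with adjusted p = 0.405 and 0.00831 unadjusted in edgeR's quasi-likelihood test. The macrophage markers above were higher in the same mice, and their part in the Fxyd5 values was not tested. Fxyd6, at 14.9 to 20.1 CPM in WT and 19.9 to 23.7 CPM in Lztr1 R409C/+ mice, had a log2 fold change of 0.25 ± 0.17 (SE). Fxyd2 and Fxyd7 were mostly under 1 CPM, with log2 fold changes of 0.81 and -0.20 and SEs of 0.64 and 0.81, and Fxyd3 and Fxyd4 were too low to be tested.

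Levels of different genes were set side by side as CPM per kb of the GENCODE canonical transcript. In WT mice, Scn4a was at 4.38 ± 0.766 CPM per kb (SD, n = 3) and Scn7a at 3.86 ± 0.477, and the 2 did not differ beyond their spread. Their order turned when all annotated exons were counted in the length, where Scn4a came to 3.36 and Scn7a to 3.86 CPM per kb. In Lztr1 R409C/+ mice, Scn4a was at 2.35 ± 0.483 and Scn7a at 3.61 ± 0.627 CPM per kb of canonical transcript, and every mutant mouse had less Scn4a than Scn7a. Scn4b stood at 7.76 ± 0.154 CPM per kb in WT mice and at 5.98 ± 1.47 in Lztr1 R409C/+ mice.

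In the pump, Atp1b1 stood at 103 ± 10.8 CPM per kb in WT mice (SD, n = 3), above the beta subunits Atp1b3 at 24.5 ± 4.43 and Atp1b2 at 5.04 ± 1.66, and the 3 ranges did not overlap. It made up 77.0%, 78.4% and 77.6% of the summed per-length beta subunit level in WT mice and 71.8%, 80.6% and 73.9% in Lztr1 R409C/+ mice. Fxyd1 stood at 81.2 ± 36.0 CPM per kb in WT mice and made up 75.0% to 88.9% of the FXYD level in WT and 81.2% to 85.1% in Lztr1 R409C/+ mice. The Fxyd1 level depends on the length used, since its canonical transcript has 806 bases and all its annotated exons together 4386, but it led the FXYD genes under both.

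**Figure D3:**
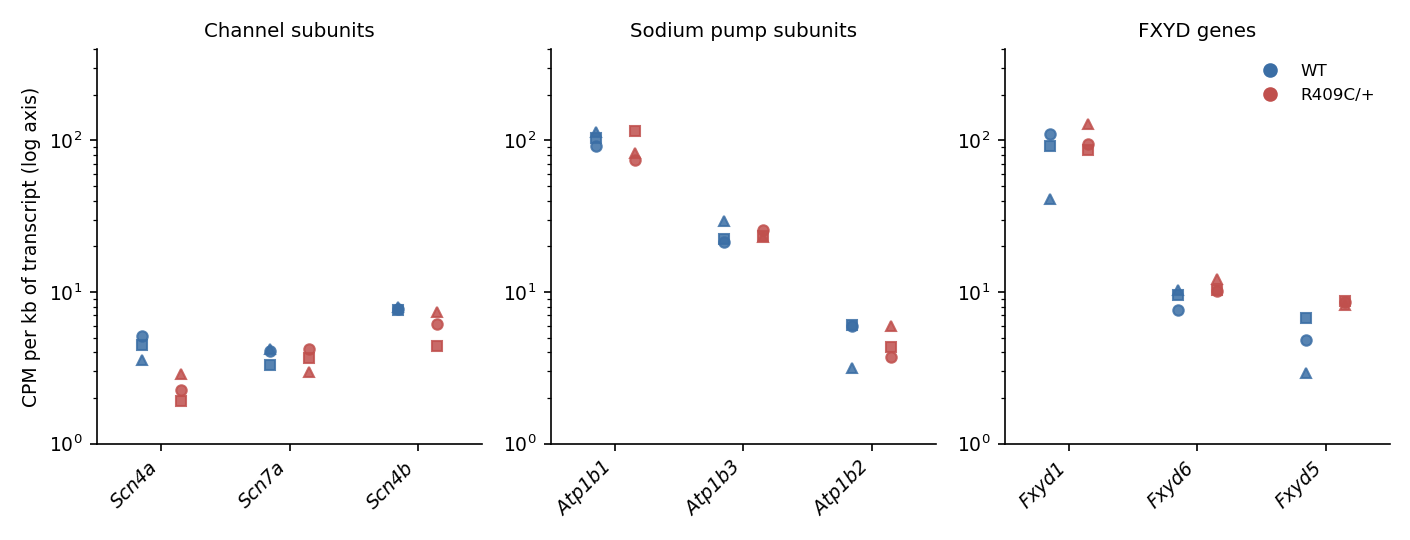
Level in CPM per kb of canonical transcript (log axis) in WT (blue) and Lztr1 R409C/+ mice (red) for 3 channel, 3 pump and 3 FXYD genes, with the symbol giving the mouse number as circle (1), square (2) or triangle (3). The red points of Scn4a lie below its blue ones and below those of Scn7a, and Atp1b1 and Fxyd1 lie above the other genes of their panels.

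Ratios within a mouse do not depend on how libraries are scaled. The log2 ratio of Fxyd1 to Atp1b1 was -1.40, -1.86 and -3.13 in WT mice and -1.34, -2.11 and -1.03 in Lztr1 R409C/+ mice. The genotypes overlapped, with a difference of 0.64 (exact permutation test, two-sided p = 0.4, 0.64 after adjustment over the 8 ratios compared). WT mouse 3 was lowest, and the difference was 0.14 without it, 0.41 without mutant mouse 3 and 1.006 without WT mouse 1. The log2 ratio of Scn4b to Atp1b1 was -2.60, -2.78 and -2.85 in WT mice and -2.61, -3.74 and -2.51 in Lztr1 R409C/+ mice. Mutant mouse 2 lay below the other 5 mice, which were close together, and the difference was -0.21 (exact permutation test, two-sided p = 0.9, adjusted p = 1). Its direction rested on that mouse, since without it the difference was 0.19.

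The wider list held 61 genes in 8 groups, of which 50 were tested. At an unadjusted p under 0.05 in the quasi-likelihood test, 2 of the 50 were higher and 4 were lower, against 5.77% and 2.86% of all genes, and 0 passed 0.05 after adjustment. DESeq2's Wald test and edgeR's exact test each called 2 of the 50, Scn3a and Scn4a, where they called 0.918% and 0.813% of all genes. The median log2 fold change of the 50 was -0.04, against 0.01 over all genes tested. By sign, 22 were higher and 28 lower, where 8853 of all genes tested were higher and 8359 lower. Without overlap 3 of the 50 were higher and 7 lower, where 8.30% and 7.23% of all genes were.

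Among other sodium transporters, 2 of 8 tested were lower at an unadjusted p under 0.05, where 2.86% of all genes were. Slc8a1, the cardiac sodium-calcium exchanger NCX1, was at 379, 381 and 412 CPM in WT mice and at 242, 327 and 266 CPM in Lztr1 R409C/+ mice. All mutant mice lay below all WT mice (log2 fold change -0.49 ± 0.17 SE, adjusted p = 0.454 and 0.0123 unadjusted in edgeR's quasi-likelihood test). Slc12a2, the sodium-potassium-chloride cotransporter NKCC1, was at 35.5, 40.4 and 49.5 CPM in WT mice and at 30.2, 31.6 and 26.1 CPM in Lztr1 R409C/+ mice, also without overlap (log2 fold change -0.51 ± 0.17 SE, adjusted p = 0.428 and 0.00991 unadjusted by edgeR's same test).

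None of the 13 tested channel partners and none of the 8 pump regulators reached an unadjusted p under 0.05, which 5.77% of all genes did as higher and 2.86% as lower. The lowest p among partners was that of Camk2d, the main cardiac CaM kinase II gene, at 190 to 246 CPM in WT and 141 to 195 CPM in Lztr1 R409C/+ mice (log2 fold change -0.35 ± 0.18 SE, unadjusted p of 0.0763 in edgeR's quasi-likelihood test). Among pump regulators it was that of Ppp1cb, a catalytic subunit of protein phosphatase 1, at 418 to 677 and 276 to 437 CPM (log2 fold change -0.43 ± 0.23 SE, unadjusted p of 0.0899 by the same test). Camk2d and Ppp1cb overlapped between the genotypes. Of the 13 partners, 1 was lower without overlap, as 7.23% of all genes were, and of the 8 regulators 0 were.

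How closely the members followed each other across the 6 mice was read from a measure of likeness. The measure was the mean absolute difference between log2 CPM values, each centred on the gene's own mean over the 6 mice, and the genes compared were the 8433 with a mean log2 CPM of at least 3. Between members it was smallest for Scn4a and Scn4b, at 0.268, and largest for Scn4a and Fxyd1, at 0.671. The medians over all genes compared were 0.278 for Scn4b, 0.458 for Scn4a, 0.238 for Atp1b1 and 0.426 for Fxyd1. Scn4a and Scn4b were thus closer to each other than the median gene was to either, though for Scn4b only just, at 0.268 against 0.278. Atp1b1 was farther from Scn4b, at 0.298, and from Scn4a, at 0.399, than from its own median gene, though 0.399 was under the median of Scn4a. Fxyd1 was farther from each other member than from its median gene.

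The genes most like Scn4a were Polq, Asb18 and Abat, at 0.0767, 0.0945 and 0.178, a DNA polymerase, an ankyrin repeat and SOCS box protein, and GABA transaminase. Polq and Asb18 had log2 fold changes of -0.96 and -0.76. Those most like Scn4b were Arntl, the gene of the clock factor BMAL1, Lats2, a kinase of the Hippo pathway, and Madd, at 0.0581, 0.0731 and 0.0805. All 3 were lowest in mutant mouse 2, as Scn4b was. Pak2, Erap1 and Trim35 were most like Atp1b1, at 0.0413, 0.0455 and 0.0510. Arpc3, a subunit of the Arp2/3 complex, Prr14 and Parp3 were most like Fxyd1, at 0.0652, 0.0821 and 0.0838, and all 3 were lowest in WT mouse 3, as Fxyd1 was. These genes were chosen by their likeness over the same 6 mice. A shared lowest mouse or direction is therefore part of the choice and no separate result. The likeness values describe the 6 libraries, of which all genes share the depth and composition, and carry no test.

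Neighbouring genes could share reads with the members, since the strand setting of the counting is not given in the sources used here. Scn4a shared 85 exon bases, 0.988% of its annotated exons, with Prr29 on the other strand, and Prr29 stayed at or under 1.06 CPM. Atp1b1 shared 587 exon bases (12.1%) with Nme7 and 290 with Gm32391, neither of which exceeded 2.35 CPM. Nme7 was lower without overlap, as 7.23% of all genes were, with a log2 fold change of -0.34 ± 0.29 (SE). It was at 1.771 to 2.35 CPM in WT and 1.39 to 1.766 CPM in Lztr1 R409C/+ mice. Scn4b shared 107 exon bases with Gm39327, which had 0 counts in every library. Fxyd1 shared no exon bases, though Fxyd7, on the same strand, began 130 bases away and stayed at or under 0.530 CPM. The part of shared reads in the members' counts was not tested. Of the nearest genes without shared exons, Lgi4 beside Fxyd1 was at 1.94 to 2.91 CPM, and Gm10684 beside Scn4b and Gm37411 beside Atp1b1 were at or under 0.0422 CPM. Gm68018 and Gm70492 were not analysed here. Both genes beside Scn4a were higher without overlap, as 8.30% of all genes were, Cd79b at 0.274 to 0.497 CPM in WT and 0.559 to 0.938 CPM in Lztr1 R409C/+ mice (log2 fold change 1.01 ± 0.49 SE, adjusted p = 0.599 in edgeR's quasi-likelihood test) and Icam2 at 10.1 to 13.3 and 13.99 to 19.1 CPM (log2 fold change 0.42 ± 0.19 SE, adjusted p = 0.564 by edgeR's same test).

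**Figure D4:**
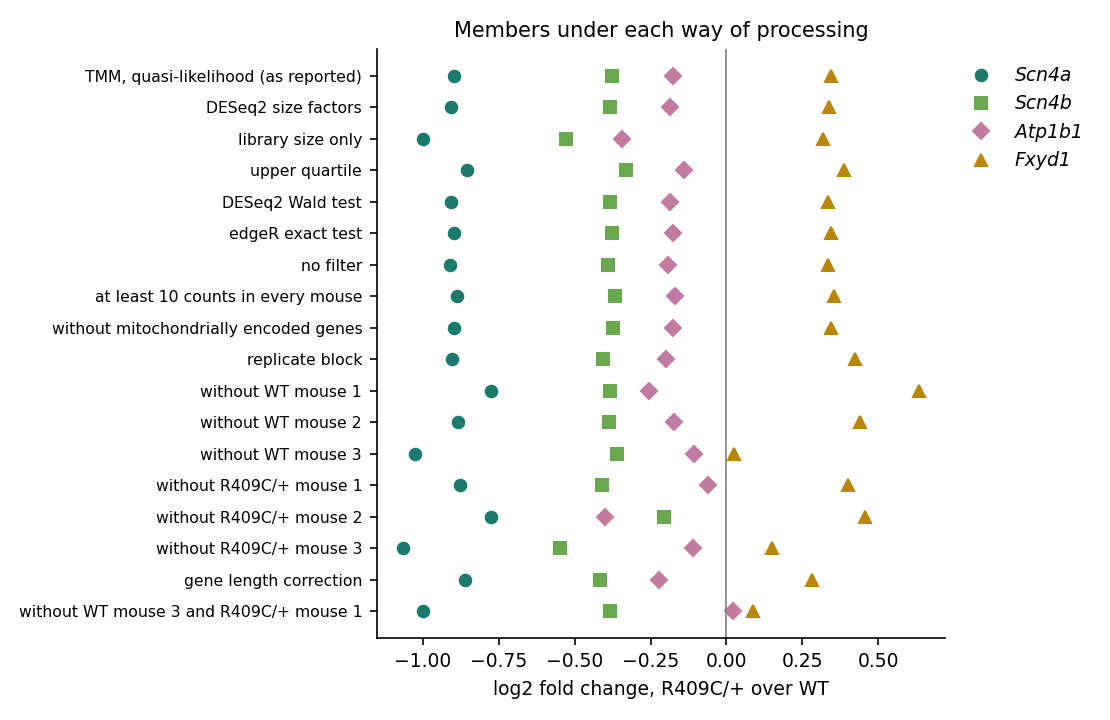
Log2 fold change of Lztr1 R409C/+ over WT mice (x axis) of the 4 members under the reported analysis (top) and 17 other ways of processing (y axis), each member with its own symbol and colour. Scn4a stays between -1.07 and -0.77 and Scn4b below 0 throughout, while Atp1b1 reaches 0.02 and Fxyd1 comes down to 0.03.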

How the data were processed

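The authors trimmed reads with Trim Galore, excluded rRNA reads, aligned with HISAT2 to GRCm39 and counted with StringTie, and deposited whole-number counts per gene without normalization. Versions, annotation release and strand setting are not given in the sources used here. The authors' edgeR comparison was used for gene names only. Its columns hold log2 fold changes, average log2 CPM, p-values and adjusted p-values.

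The filter filterByExpr of edgeR 4.0.16 (R 4.3.3) kept 17212 genes. They were normalized with TMM and compared by the robust quasi-likelihood test, and p-values were adjusted over all of them by the Benjamini-Hochberg method. The common biological coefficient of variation was 26.1%. Ratios were compared by exact permutation tests. DESeq2 1.42.0, the exact test, other scalings, filters, a replicate block and leaving mice out were alternatives, and the scripts were tested on simulated data. Positions and lengths came from GENCODE on GRCm39, which held 56236 of the 56923 identifiers. Replicates are separate libraries that the labels number, and litters are not given.

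The members and gene lists were chosen with earlier results of these data known. Beside the members, the text names the tested channel, pump and FXYD genes, of which some are not reported here, and of the other groups the genes with an unadjusted p under 0.05 or else the 1 with the lowest. For each member it names overlapping and adjacent genes and the 3 genes most like it. Counts over whole lists and the adjustment over ratios include genes that are not reported by name.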

Additional observations from a re-analysis of the deposited data

How the results depend on the processing

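Over 17 other ways of processing, Scn4a, Scn4b and Fxyd1 kept their direction and Atp1b1 kept it in 16, with values from -0.3997 without Lztr1 R409C/+ mouse 2 to 0.0207 without WT mouse 3 and Lztr1 R409C/+ mouse 1 together, an alternative chosen after seeing the data, as was a gene length correction. Scn4a crossed an adjusted p of 0.05 in DESeq2's Wald test (-0.9063) and in edgeR's exact test (-0.8976), and the other members in no alternative. The 6 genes called higher and 1 called lower over all genes became 143 and 15 with DESeq2, 127 and 13 with the exact test, and 15 and 6 with scaling to library size only, which moved the median log2 fold change of all genes from 0.0122 to -0.144. Without a filter 19 were higher, with at least 10 counts in every mouse 0 were lower, and without those 2 mice 0 were higher. Leaving out each mouse gave 1 to 3 higher and 1 to 2 lower. Of the sodium list, 2 genes were called by DESeq2 and 2 by the exact test, against 0. The cause was not tested. Leaving out 1 mouse moved the log2 ratio difference of Scn4b to Atp1b1 between -0.4288 and 0.185, the latter, of the opposite sign, without Lztr1 R409C/+ mouse 2.

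Mice that share a number are not said to be paired, and their deviations from the group means correlated at -0.00133, 0.0215 and -0.0573. With a replicate block, edgeR's quasi-likelihood test called 0 genes higher and 1 lower, the log2 fold changes were -0.9036 for Scn4a, -0.4055 for Scn4b, -0.1996 for Atp1b1 and 0.4233 for Fxyd1, and no call of a member changed.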
